A study of Mus musculus with 18 samples.

Results

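Lungs of untreated C57BL/6J mice were compared with lungs of untreated C3H/HeJ mice. The 6 samples titled as controls of these strains, 3 for each, were taken from a series of 18 samples. Mice of each strain were 15 to 26 weeks old and untreated, per the labels, which write C57BL6/J for the first strain. The remaining 12 samples are untreated A/J mice of the same age and mice of all 3 strains that received 18 Gy of gamma rays to the whole thorax at 8 weeks of age and were taken when moribund. Irradiated C57BL/6J mice were then 28 to 30 weeks old and irradiated C3H/HeJ mice 20 to 22 weeks old. Total RNA of the right lung was labelled with biotin and hybridised to single-colour oligonucleotide arrays. The labels speak of 3 samples from control mice and do not say whether each came from its own mouse. The p-values thus measure the spread between samples, which may in part be technical. Each SE and p-value of the fit rests on the spread within the groups of all 18 arrays, not only on the 6 samples compared.

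C57BL/6J and C3H/HeJ are inbred strains, each genetically uniform, that are set side by side in radiation research because C57BL/6J lungs are known to scar after thoracic irradiation and C3H/HeJ lungs are known mainly for inflammation of the air sacs. The strains carry different haplotypes of the major histocompatibility complex (MHC), the gene cluster whose proteins present peptides to T cells. C57BL/6J is known for a deletion within Nnt, a mitochondrial enzyme that makes NADPH, and for a deletion at the promoter of H2-Ea, an MHC class II chain. C3H/HeJ is known for a missense mutation in Tlr4, the receptor for bacterial lipopolysaccharide. The comparison of untreated mice asks which genes differ between these lungs without exposure.

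Each value below is a level on the log2(signal + 7) scale after quantile normalization, in the order of the replicate numbers in the titles, and each difference is C57BL/6J minus C3H/HeJ on that scale, so that 1 is a doubling. Dim genes have their differences understated by the added 7. A gene was called where limma's p-value, adjusted over 12405 genes by the Benjamini-Hochberg method, was under 0.05. Defining genes of lung tissue were measured in both strains, and the surfactant, alveolar type 1 and club cell genes were bright. Sftpc, surfactant protein C of alveolar type 2 cells, was at 12.98 on all 6 arrays, and Ager, a surface receptor of alveolar type 1 cells, had 12.86, 12.78 and 12.71 in C57BL/6J, against 12.82, 12.86 and 12.88 in C3H/HeJ. Scgb1a1, the main secretory protein of club cells, lay between 13.04 and 13.19. Sftpb, surfactant protein B, had 11.85, 11.81 and 11.93 in C57BL/6J, against 11.73, 11.81 and 11.73 in C3H/HeJ. The transcription factors were dimmer, with 5.18, 5.26 and 5.47 in C57BL/6J, against 5.56, 5.32 and 5.44 in C3H/HeJ for Nkx2-1, which specifies lung epithelium, and 6.82, 7.32 and 6.99 in C57BL/6J, against 7.02, 6.68 and 6.77 in C3H/HeJ for Foxj1, the regulator of motile cilia. Quantile normalization ties the brightest values of all arrays, so that a difference in Sftpc or Scgb1a1 cannot be read from them. None of the 6 defining genes was called, and none had an unadjusted p under 0.05.

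Arrays of the same strain correlated at 0.962 to 0.979 within C57BL/6J and at 0.971 to 0.981 within C3H/HeJ, over all genes, and at 0.928 to 0.956 between the strains. The deposited signals differed in brightness, with trimmed means of 61, 79.2 and 92.7 on the C57BL/6J arrays, against 46.5, 75.2 and 71.5 on the C3H/HeJ arrays. The ratio of 5' to 3' probe sets, a sign of RNA integrity, for actin had a mean of 0.709 for C57BL/6J, against 0.731 for C3H/HeJ (exact permutation p = 0.5, two-sided, where 3 against 3 arrays cannot go below 0.1). Some arrays stood apart. The mean level of the 22 measured genes of squamous epithelium, such as lines the oesophagus, was 7.67, 4.34 and 7.64 on the C57BL/6J arrays, against 4.24, 4.10 and 4.41 on the C3H/HeJ arrays. Of 37 listed, only genes above the overall median on at least 3 arrays were measured. Some may have passed only through the arrays where they are high, which would enlarge this contrast. The mean of the 17 measured skeletal muscle genes was 7.38, 4.49 and 7.30 on the C57BL/6J arrays, against 4.80, 4.79 and 4.93 on the C3H/HeJ arrays. Both lists were thus high in C57BL/6J replicates 1 and 3, while replicate 2 lay close to C3H/HeJ. A higher level in such bulk tissue may mean more cells of a type or more RNA per cell, which cannot be told apart.

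**Figure D1:**
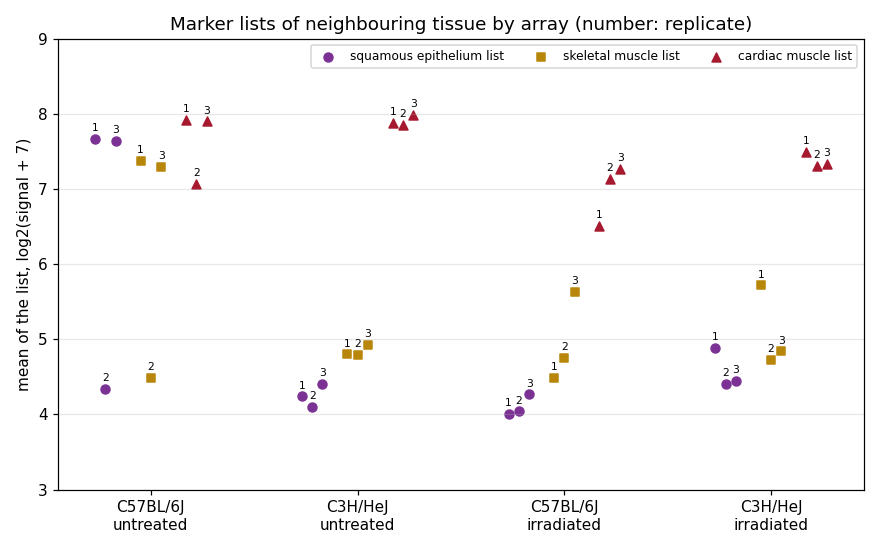
Mean level of 3 marker lists on each array, as log2(signal + 7), in untreated and irradiated lungs of both strains, with each point labelled by its replicate number. The squamous and skeletal muscle lists reach 7.67 and 7.38 on C57BL/6J untreated replicate 1 and lie near 4 to 6 on every array other than C57BL/6J untreated replicates 1 and 3.

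Of 12405 genes, 1346 were called, which is 10.9%. Of these, 744 were higher in C57BL/6J (6.0%) and 602 were lower (4.85%). Counts of the gene lists below are to be read beside these shares. The called differences were mostly modest, with a median size of 0.72. At least 2-fold differences numbered 381, of which 252 were higher and 129 lower in C57BL/6J. At least 4-fold differences numbered 66, with 48 higher and 18 lower, and at least 8-fold differences numbered 14, with 11 higher and 3 lower. All 3 arrays of one strain lay above all 3 of the other for 3629 genes (29.3%), and for 1325 of the called genes. When the 3 arrays high in squamous genes, which are C57BL/6J replicates 1 and 3 and 1 irradiated A/J array, were left out, a single C57BL/6J array remained. Its spread was then taken to be that of the other groups, and 414 genes were called. Of the 1346 genes, 366 were among them and 1343 kept their direction.

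**Figure D2:**
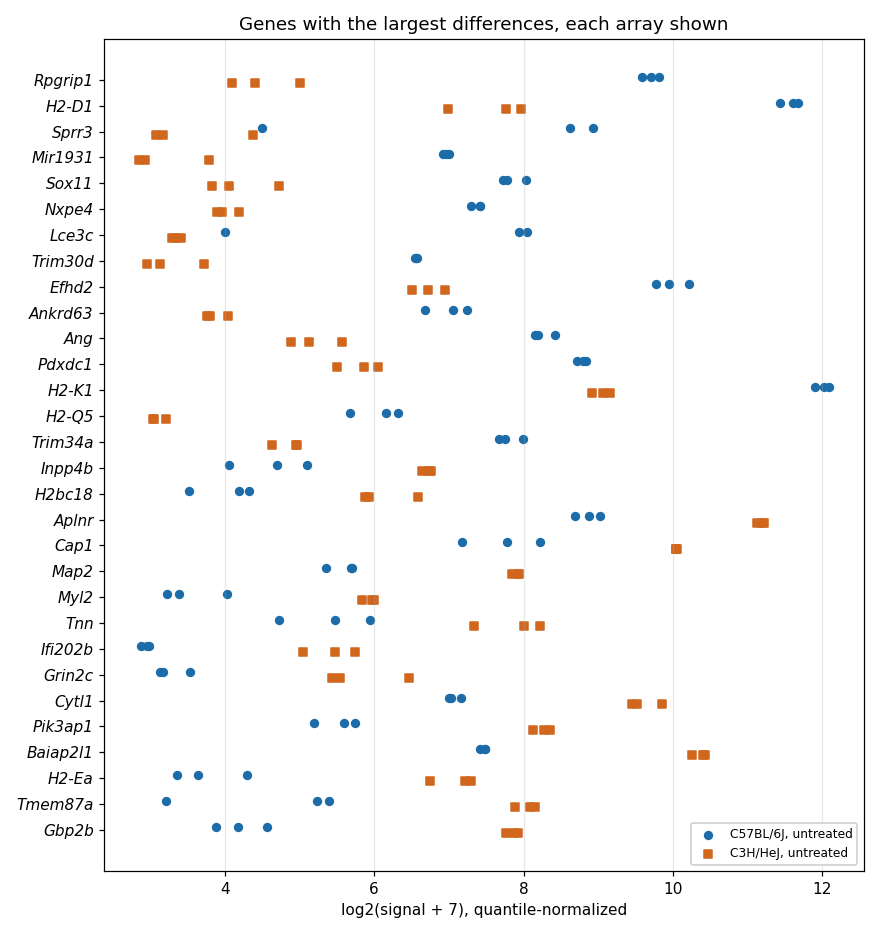
The 15 highest and 15 lowest called differences between C57BL/6J (circles) and C3H/HeJ (squares) in untreated lung, with each array as a point on the log2(signal + 7) axis. Genes were picked among called genes without overlap between arrays, so their separation follows from the rule. For Sprr3 and Lce3c, C57BL/6J replicate 2 lies near the C3H/HeJ arrays, at 4.5 and 4.0.

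The 15 highest and 15 lowest differences were picked among called genes without overlap between arrays, so their separation follows from the rule. The highest difference belonged to Rpgrip1, a protein of the photoreceptor cilium, with 9.58, 9.70 and 9.82 in C57BL/6J, against 4.41, 4.09 and 5.0 in C3H/HeJ. The groups lay far apart, and the difference was 5.19 ± 0.20 (SE, adjusted p = 1.31e-10). Sox11, a transcription factor known from developing tissues, had 7.78, 7.73 and 8.03 in C57BL/6J, against 4.73, 3.83 and 4.06 in C3H/HeJ. Its difference was 3.64 ± 0.27 (SE, adjusted p = 4.21e-07), and the other 5 probe sets of Sox11 were called in the same direction at 0.93 to 2.43. With the 3 squamous-high arrays left out, it was 2.42 (adjusted p = 0.00112). Ang encodes angiogenin, a secreted ribonuclease, and had 8.42, 8.15 and 8.19 in C57BL/6J, against 5.57, 4.89 and 5.13 in C3H/HeJ. Its difference was 3.05 ± 0.20 (SE, adjusted p = 1.55e-07), its other 2 probe sets were at 5.96 and 1.72, and the neighbouring genes Pnp and Rnase4 were called higher as well. Nxpe4 had 7.41, 7.30 and 7.42 in C57BL/6J, against 3.96, 3.90 and 4.19 in C3H/HeJ, with a difference of 3.36 ± 0.14 (SE, adjusted p = 3.16e-10). Ankrd63 had 7.05, 6.68 and 7.24 in C57BL/6J, against 3.80, 4.04 and 3.76 in C3H/HeJ, with a difference of 3.12 ± 0.23 (SE, adjusted p = 3e-07). Genes were kept if above the overall median on at least 3 arrays, and Ankrd63 may have passed only through these 3 C57BL/6J arrays. Efhd2, a calcium-binding protein, differed by 3.26 ± 0.37 (SE, adjusted p = 2.81e-05), but its other probe set differed by only 0.39. The gene annotated for a further probe set is the microRNA gene Mir1931, which had 6.92, 6.96 and 7.0 in C57BL/6J, against 2.93, 2.85 and 3.79 in C3H/HeJ. Its difference was 3.77 ± 0.27 (SE, adjusted p = 3e-07), and whether the probe set reports the mature microRNA was not tested. Its neighbours Nedd1, Cfap54 and Cdk17 were also called higher.

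Pdxdc1, a decarboxylase-domain protein, showed probe sets that oppose each other. The probe set with the highest mean had 8.84, 8.72 and 8.8 in C57BL/6J, against 6.05, 5.86 and 5.50 in C3H/HeJ, a difference of 2.99 ± 0.38 (SE, adjusted p = 8.67e-05). A further 2 were at 1.92 and 1.33, and the fourth was at -4.90. With the probe sets of the gene averaged, the difference was 0.33 and was no longer called. Over all called genes, 603 had at least 2 kept probe sets. Of these, 243 had another probe set called in the same direction and 26 had one called in the opposite direction, while 743 genes rested on 1 probe set. Whether sequence differences between the strains under the probes account for part of these values was not tested.

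Among genes lower in C57BL/6J, the lowest difference was that of Gbp2b, a guanylate-binding protein of the interferon response, described with the interferon genes. Tmem87a, a membrane protein of the Golgi, had 5.40, 5.23 and 3.21 in C57BL/6J, against 7.89, 8.15 and 8.08 in C3H/HeJ. The difference was -3.43 ± 0.37 (SE, adjusted p = 1.77e-05). Baiap2l1, an adaptor that links membranes to actin, had 7.48, 7.42 and 7.49 in C57BL/6J, against 10.40, 10.43 and 10.25 in C3H/HeJ. The arrays of each strain lay within narrow ranges, the difference was -2.90 ± 0.09 (SE, adjusted p = 6.76e-12), and its second probe set gave -2.96. Cap1, which binds actin and adenylate cyclase, had 7.78, 7.18 and 8.22 in C57BL/6J, against 10.04, 10.04 and 10.06 in C3H/HeJ, a difference of -2.32 ± 0.23 (SE, adjusted p = 5.42e-06) that its second probe set gave as -2.07. Map2, a microtubule protein best known from neurons, had 5.70, 5.35 and 5.69 in C57BL/6J, against 7.93, 7.85 and 7.94 in C3H/HeJ, a difference of -2.33 ± 0.13 (SE, adjusted p = 2.25e-08). A second probe set of Map2 gave -1.29. Pik3ap1, an adaptor of phosphoinositide 3-kinase in immune cells, had 5.6, 5.74 and 5.19 in C57BL/6J, against 8.28, 8.36 and 8.13 in C3H/HeJ for the brighter probe set. Its difference was -2.75 ± 0.24 (SE, adjusted p = 2e-06), while the other probe set gave -0.12 and was not called.

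Secreted and surface proteins were also among the lowest. Cytl1, a small secreted protein, had 7.16, 7.03 and 7.0 in C57BL/6J, against 9.45, 9.52 and 9.86 in C3H/HeJ, a difference of -2.55 ± 0.29 (SE, adjusted p = 2.66e-05). Tnn, the matrix protein tenascin N, had 5.48, 5.94 and 4.73 in C57BL/6J, against 7.33, 8.22 and 8.0 in C3H/HeJ, with a difference of -2.47 ± 0.42 (SE, adjusted p = 0.00115). Once the 3 squamous-high arrays were removed, it was -1.91 and not called (adjusted p = 0.105). Aplnr, the receptor for the vascular peptide apelin, had 8.88, 8.69 and 9.03 in C57BL/6J, against 11.22, 11.19 and 11.13 in C3H/HeJ. It was thus clearly expressed in both strains but lower in C57BL/6J, with a difference of -2.31 ± 0.37 (SE, adjusted p = 0.000699), and its second probe set gave -1.84. Grin2c, a glutamate receptor subunit, differed by -2.54 ± 0.25 (SE, adjusted p = 6.06e-06), the histone gene H2bc18 by -2.11 ± 0.25 (SE, adjusted p = 5.17e-05) and Inpp4b, a lipid phosphatase, by -2.10 ± 0.27 (SE, adjusted p = 9.15e-05). Their C57BL/6J arrays lay between 3.13 and 5.10, and their C3H/HeJ arrays between 5.44 and 6.76.

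Genes known to carry a sequence or copy variant in one of these strains, or in other inbred mice, were followed as a list. Of 10 measured, 0 were called higher and 7 lower in C57BL/6J, with a median difference of -1.24 beside -0.02 over all genes. Nnt had 7.01, 6.77 and 6.76 in C57BL/6J, against 8.44, 8.18 and 8.17 in C3H/HeJ. No array overlapped, and the difference was -1.42 ± 0.11 (SE, adjusted p = 4.42e-07), with its second probe set at -1.29. Glo1, the glyoxalase that detoxifies methylglyoxal and lies in a segment duplicated in some inbred strains, had 8.45, 8.42 and 8.04 in C57BL/6J, against 9.41, 9.52 and 9.48 in C3H/HeJ. Its difference was -1.17 ± 0.11 (SE, adjusted p = 5.79e-06), with 2 further probe sets at -1.23 and -1.20 and another at -0.52 that was not called. Its neighbours on the chromosome, Btbd9, Dnah8 and Glp1r, differed by -0.17, -0.26 and -0.21 and were not called. Under no scaling of the arrays these 3 differences were 0.09, 0.00 and 0.04, and Glo1, with a negative difference, was no longer called. In the whole list 4 were then called lower.

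Wdfy1, an endosomal adaptor, had 5.83, 6.15 and 6.38 in C57BL/6J, against 7.41, 7.53 and 7.38 in C3H/HeJ, a difference of -1.32 ± 0.18 (SE, adjusted p = 0.000144) shared by its 2 other probe sets at -1.35 and -1.29. Ahr, the receptor for dioxin-like compounds, had 9.20, 9.44 and 9.30 in C57BL/6J, against 10.09, 9.79 and 9.83 in C3H/HeJ, and was lower, with a difference of -0.59 ± 0.13 (SE, adjusted p = 0.00851). The levels of Tlr4 itself overlapped between the strains, with 6.03, 6.23 and 6.19 in C57BL/6J, against 5.77, 6.10 and 5.99 in C3H/HeJ and a difference of 0.20 ± 0.21 (SE, adjusted p = 0.628), whose sign turned when its probe sets were averaged (-0.05) or only untreated arrays were fitted (-0.15). Of the 19 measured genes of its pathway, none was called in either direction by limma and 3 had an unadjusted p under 0.05. Ctse, an aspartic protease, differed by 0.68 ± 0.33 (SE, adjusted p = 0.21) and Apobec3, which restricts retroviruses, by 0.49 ± 0.28 (SE, adjusted p = 0.297), neither of them called. Pde6b, whose mutation causes retinal degeneration in C3H/HeJ, and Nlrp1b were not among the genes tested.

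MHC genes differed in both directions. In class II, 3 of 13 measured genes were called higher and 2 lower in C57BL/6J, beside 6.0% and 4.85% of all genes. The median was -0.08. H2-Ea had 4.29, 3.36 and 3.64 in C57BL/6J, against 6.75, 7.30 and 7.21 in C3H/HeJ. Its C57BL/6J arrays were near the bottom of the scale, with a difference of -3.32 ± 0.30 (SE, adjusted p = 2.98e-06), and its second probe set gave -2.26. H2-Ob, a chaperone subunit that tunes peptide loading, was also lower, with a difference of -0.93 ± 0.27 (SE, adjusted p = 0.0345). H2-Eb1, the partner chain of H2-Ea, had 10.70, 10.85 and 10.59 in C57BL/6J, against 9.95, 10.13 and 10.29 in C3H/HeJ and was higher by 0.59 ± 0.11 (SE, adjusted p = 0.00259). H2-Ab1 was higher by 0.58 ± 0.15 (SE, adjusted p = 0.0211) and H2-DMa, a peptide-loading subunit, by 0.68 ± 0.13 (SE, adjusted p = 0.00388). The directions within class II therefore differed between genes. Without the 3 arrays high in squamous genes, 1 gene was called higher and 1 lower, and 0 were called higher and 1 lower with no scaling of the arrays.

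In class I, 5 of 21 measured genes were called higher and 0 lower, beside 6.0% and 4.85% of all genes. The median was 0.05. H2-K1, a classical chain that presents peptides to CD8 T cells, had 12.02, 12.09 and 11.90 in C57BL/6J, against 9.16, 8.92 and 9.07 in C3H/HeJ. The difference was 2.96 ± 0.10 (SE, adjusted p = 1.83e-11), and its 3 other probe sets were also higher, at 1.01 to 4.84. H2-D1, the other classical chain, had 11.61, 11.68 and 11.43 in C57BL/6J, against 6.99, 7.76 and 7.97 in C3H/HeJ on its brightest probe set, a difference of 4.0 ± 0.67 (SE, adjusted p = 0.00108). Its 8 probe sets ranged from -5.07 to 5.37, and with all of them averaged the difference was 0.68 and not called. With the 3 squamous-high arrays left out, the brightest probe set gave 4.11 (adjusted p = 0.0514). H2-Q5 likewise had probe sets at 2.95 and -1.78, both called. Tap1, which pumps peptides into the endoplasmic reticulum and lies in the same complex, had 7.47, 7.69 and 6.98 in C57BL/6J, against 6.65, 6.15 and 6.28 in C3H/HeJ. It was higher by 1.02 ± 0.16 (SE, adjusted p = 0.000662) and by 1.33 without those 3 arrays. H2-M3, a nonclassical chain, was higher by 0.62 ± 0.18 (SE, adjusted p = 0.0362). Signals of these genes are uncertain where near-identical family members share probes.

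Interferon-inducible genes were called in both directions. Among guanylate-binding proteins and immunity-related GTPases, which attack the vacuoles of intracellular microbes, 2 of 11 were called higher and 2 lower, with a median of 0.29. Over all genes 6.0% were called higher and 4.85% lower. Gbp2b had 4.17, 3.88 and 4.57 in C57BL/6J, against 7.93, 7.77 and 7.87 in C3H/HeJ. Its C57BL/6J arrays were near the bottom of the scale, and the difference was -3.65 ± 0.18 (SE, adjusted p = 2.27e-09). Its relatives moved apart, with Gbp2 at 8.79, 9.15 and 8.66 in C57BL/6J, against 7.93, 8.0 and 8.09 in C3H/HeJ, higher by 0.86 ± 0.15 (SE, adjusted p = 0.00183), and Gbp8 with a difference of -1.08 ± 0.26 (SE, adjusted p = 0.0136). Irgm2, an immunity-related GTPase, was higher by 0.71 ± 0.17 (SE, adjusted p = 0.0125).

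In the Ifi200 cluster of nuclear DNA sensors, 2 of 7 were called higher and 1 lower, beside 6.0% and 4.85% of all genes. Ifi202b had 2.88, 2.99 and 2.96 in C57BL/6J, against 5.74, 5.48 and 5.05 in C3H/HeJ. The C57BL/6J arrays were at the floor of the scale, and the difference was -2.48 ± 0.23 (SE, adjusted p = 3.27e-06). Ifi213 had 6.23, 6.63 and 6.86 in C57BL/6J, against 4.09, 4.28 and 3.89 in C3H/HeJ, the reverse direction, with a difference of 2.49 ± 0.23 (SE, adjusted p = 3.44e-06), and Ifi209 was higher by 1.26 ± 0.27 (SE, adjusted p = 0.00604). Gbp2b and Ifi202b were the lowest genes of these families, and their promoters are shown from RefSeq on build GRCm38.p6, whose reference strain is C57BL/6J. The windows are the 250 bases upstream of 1 start per gene, that with the lowest coordinate. They lie at chr3:142594597-142594846 on the plus strand for Gbp2b and at chr1:173982845-173983094 on the minus strand for Ifi202b. Both strands were searched for the interferon element (GAAA, any 2 bases, GAAA), the core of elements bound by interferon regulatory factors, and for TTCNNNGAA, the core of gamma-activated sites. Capitals mark the matches.
Gbp2b: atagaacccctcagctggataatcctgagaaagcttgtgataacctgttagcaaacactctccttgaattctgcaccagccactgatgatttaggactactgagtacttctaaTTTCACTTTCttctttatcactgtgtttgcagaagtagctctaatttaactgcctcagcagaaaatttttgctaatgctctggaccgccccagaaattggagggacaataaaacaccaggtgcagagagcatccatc
Ifi202b: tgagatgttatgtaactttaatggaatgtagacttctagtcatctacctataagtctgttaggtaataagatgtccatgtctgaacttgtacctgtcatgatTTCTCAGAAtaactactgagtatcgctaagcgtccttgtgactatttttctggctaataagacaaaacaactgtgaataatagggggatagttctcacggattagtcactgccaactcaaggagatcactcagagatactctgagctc
Gbp2b held 1 match to the interferon element, on the opposite strand, and Ifi202b held 1 match to TTCNNNGAA. Among 32851 promoters of the same length, 2.98% held the interferon element and 7.02% held TTCNNNGAA. A match is a description of the reference letters and says nothing of C3H/HeJ.

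Of 43 measured antiviral genes of the type I interferon response, 6 were called higher and 2 lower, beside 6.0% and 4.85% of all genes. Their median was 0.09. TRIM proteins of 1 genomic cluster stood out in size. Trim30d had 6.56, 6.57 and 6.55 in C57BL/6J, against 3.13, 3.72 and 2.96 in C3H/HeJ, a difference of 3.29 ± 0.27 (SE, adjusted p = 1.14e-06), and its second probe set gave 2.15. Trim34a differed by 2.95 ± 0.34 (SE, adjusted p = 3.07e-05) on its brighter probe set and by -1.76 on the other. Averaged, they gave 0.60, which was not called. Its neighbours Trim5 and Trim12a were called higher, with Trim5 at 1.51 ± 0.29 (SE, adjusted p = 0.00344). Slfn2, which maintains T cell quiescence, was higher by 1.39 ± 0.25 (SE, adjusted p = 0.00192). Ifi44l was lower, with 3.39, 3.92 and 3.0 in C57BL/6J, against 4.86, 5.03 and 5.07 in C3H/HeJ and a difference of -1.55 ± 0.34 (SE, adjusted p = 0.00769).

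Most genes of the circadian clock differed between the strains. Its transcription factors Arntl (also called Bmal1) and Clock drive Per and Cry genes, whose proteins repress them in turn, and the output factors Dbp, Tef and Hlf pass the rhythm on to other genes. Of 20 measured genes, 13 were called higher and 1 lower in C57BL/6J, with a median of 0.87. Once the 3 squamous-high arrays were removed, 6 were called higher and 1 lower, with a median of 0.76. Under no scaling the counts were 10 and 1. The hours at which mice were taken are not given in the labels, so strain and time of day cannot be told apart.

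**Figure D3:**
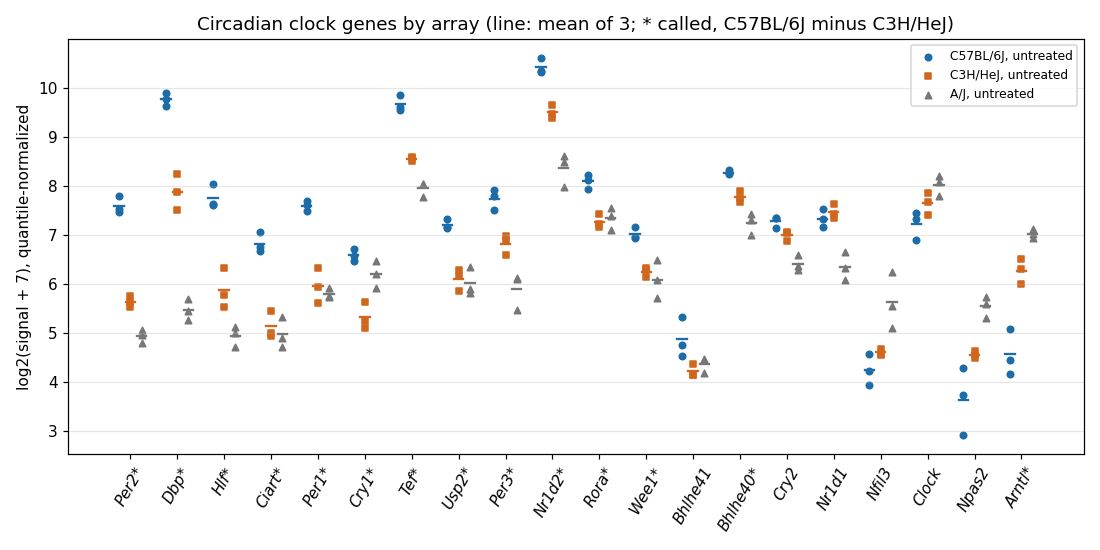
Levels of the 20 measured clock genes on each untreated array of C57BL/6J, C3H/HeJ and A/J, as log2(signal + 7), with a line at each mean of 3. The C57BL/6J mean of Per2 is 7.59, against 5.63 for C3H/HeJ. For Arntl, on the right, the means are 4.56 and 6.26.

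The repressor Per2 had 7.46, 7.53 and 7.78 in C57BL/6J, against 5.62, 5.53 and 5.75 in C3H/HeJ. No array overlapped, and the difference was 1.95 ± 0.12 (SE, adjusted p = 3.2e-08). Per1 had 7.49, 7.68 and 7.61 in C57BL/6J, against 5.6, 5.93 and 6.32 in C3H/HeJ, a difference of 1.64 ± 0.16 (SE, adjusted p = 5.29e-06), and Ciart, a further repressor, had 6.67, 6.74 and 7.05 in C57BL/6J, against 5.0, 5.44 and 4.94 in C3H/HeJ, a difference of 1.69 ± 0.23 (SE, adjusted p = 0.000157). Of the other repressors, Cry1 was higher by 1.26, Per3 by 0.92 and Nr1d2 by 0.91, while Cry2 (0.29) and Nr1d1 (-0.13) were not called. The output factor Dbp had 9.76, 9.62 and 9.90 in C57BL/6J, against 7.88, 8.23 and 7.50 in C3H/HeJ, a difference of 1.89 ± 0.20 (SE, adjusted p = 1.54e-05). Hlf had 8.03, 7.60 and 7.63 in C57BL/6J, against 5.53, 6.32 and 5.77 in C3H/HeJ, a difference of 1.88 ± 0.24 (SE, adjusted p = 8.48e-05), and Tef was higher by 1.11. A second probe set of Hlf gave 1.07. On the activating side, Arntl had 4.44, 5.08 and 4.16 in C57BL/6J, against 6.5, 6.29 and 5.99 in C3H/HeJ, and was lower, with a difference of -1.70 ± 0.24 (SE, adjusted p = 0.000263). Its second kept probe set gave 1.06, in the other direction and not called (adjusted p = 0.0638), and with both averaged Arntl was no longer called. Its partners Npas2 and Clock had differences of -0.92 and -0.44, which did not pass the test (adjusted p = 0.0875 and 0.174). Clock genes beyond the 5 called ones with the largest differences were named after their values were seen.

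Promoters of the called clock genes were searched for CACGTG, the E-box bound by Arntl and Clock, for TTANNTAA, a core of the D-box bound by Dbp, Tef and Hlf, and for TAGGTCA, an element bound by ROR and Nr1d factors. Of 14 called genes, 11 had a promoter sequence. Where a gene had several, only that with the lowest coordinate was searched. Within 250 bases upstream of that start, 4 of the 11 held an E-box, 2 a D-box and 0 the ROR element. Of all 32851 promoters, 6.02%, 5.43% and 2.23% held them. The 3 windows with more than 1 match are shown with the matches in capitals, at chr3:95882229-95882478 (minus strand) for Ciart, chr15:81802423-81802672 (plus strand) for Tef and chr4:151044666-151044915 (minus strand) for Per3, from RefSeq on GRCm38.p6.
Ciart: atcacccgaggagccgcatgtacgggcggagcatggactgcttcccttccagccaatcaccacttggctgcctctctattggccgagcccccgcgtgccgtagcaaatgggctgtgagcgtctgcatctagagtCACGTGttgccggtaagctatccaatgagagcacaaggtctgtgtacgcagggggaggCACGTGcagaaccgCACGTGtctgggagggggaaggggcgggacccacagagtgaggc
Tef: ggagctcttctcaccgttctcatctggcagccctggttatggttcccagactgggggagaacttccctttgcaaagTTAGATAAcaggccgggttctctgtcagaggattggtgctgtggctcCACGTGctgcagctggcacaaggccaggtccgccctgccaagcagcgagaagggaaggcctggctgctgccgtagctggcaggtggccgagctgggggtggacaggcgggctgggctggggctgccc
Per3: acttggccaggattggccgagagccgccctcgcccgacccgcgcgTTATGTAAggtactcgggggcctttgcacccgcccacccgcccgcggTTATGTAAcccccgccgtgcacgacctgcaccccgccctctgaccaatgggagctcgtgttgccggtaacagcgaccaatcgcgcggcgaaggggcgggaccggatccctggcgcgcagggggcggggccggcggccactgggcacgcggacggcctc
Ciart held 3 E-boxes, Tef 1 E-box and 1 D-box, and Per3 2 D-boxes. Per1 and Cry1 held 1 E-box each, and no match in a window says only that these letters are not in it. Any other starts of these genes were not searched.

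Glucocorticoid-responsive genes made up a further list with many calls. Of 19 measured, 10 were called higher and 0 lower, with a median of 0.90, and without the 3 arrays high in squamous genes 7 were called higher with a median of 0.97. Per1 belongs to this list and to the clock list. Klf9, a transcription factor induced by the glucocorticoid receptor, had 10.73, 10.83 and 11.02 in C57BL/6J, against 9.03, 9.33 and 9.26 in C3H/HeJ. The strains did not overlap, and the difference was 1.65 ± 0.15 (SE, adjusted p = 2.29e-06). Its other probe sets ranged from 0.16 to 1.08, and those at 0.16 and 0.85 were not called. Tsc22d3, known as GILZ, an anti-inflammatory mediator, had 10.01, 9.98 and 10.12 in C57BL/6J, against 8.43, 8.47 and 8.61 in C3H/HeJ, a difference of 1.53 ± 0.15 (SE, adjusted p = 5.14e-06). Other probe sets of Tsc22d3 gave 1.40 and 0.05, the latter not called. Zbtb16 had 9.05, 9.07 and 9.40 in C57BL/6J, against 7.58, 7.82 and 7.52 in C3H/HeJ, a difference of 1.54 ± 0.24 (SE, adjusted p = 0.000578), and the kinase gene Map3k6 was higher by 1.83 ± 0.24 (SE, adjusted p = 0.000111). Other probe sets of Zbtb16 gave 1.95 and 1.00, the latter not called. Not every such gene followed. Sgk1 and Dusp1, which are induced by the same receptor, had differences of -0.33 and -0.01 and were not called (adjusted p = 0.238 and 0.988). These 2 genes were chosen after their values were seen.

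Of 13 measured neutrophil genes, all had a positive difference and 4 were called higher in C57BL/6J, with a median of 0.86. Cxcr2, the chemokine receptor that guides neutrophils, had 5.93, 4.93 and 5.25 in C57BL/6J, against 3.67, 3.75 and 3.83 in C3H/HeJ, with no overlap and a difference of 1.62 ± 0.31 (SE, adjusted p = 0.00327). Ltf, lactoferrin of the granules, was higher by 1.32 ± 0.31 (SE, adjusted p = 0.0115), the iron-binding protein Lcn2 by 1.09 ± 0.24 (SE, adjusted p = 0.00713) and S100a8, a subunit of calprotectin, by 0.90 ± 0.27 (SE, adjusted p = 0.0428). The list averaged 7.24, 6.96 and 6.98 on the C57BL/6J arrays, against 6.44, 6.24 and 5.96 on the C3H/HeJ arrays, so the strains did not overlap. Without the 3 arrays high in squamous genes, 2 members were called and the median was 0.96. Ltf and Lcn2 are also made by airway epithelium.

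Among T and natural killer (NK) cell genes, 4 of 19 were called higher and 0 lower, with a median of 0.35. Over all genes the shares were 6.0% and 4.85%. Cd8b1, a chain of the CD8 coreceptor, had 5.44, 6.24 and 5.26 in C57BL/6J, against 3.58, 4.13 and 3.21 in C3H/HeJ, a difference of 2.01 ± 0.32 (SE, adjusted p = 0.000699). Cd3d was higher by 0.81 ± 0.21 (SE, adjusted p = 0.0211), Cd5 by 0.76 ± 0.21 (SE, adjusted p = 0.0301) and Gzmb, a killer protease, by 0.83 ± 0.26 (SE, adjusted p = 0.0488). In each of these 4 genes C57BL/6J replicate 2, the one low in squamous and muscle genes, was the highest of its group. Of 19 T and NK cell genes, 1 was called higher and 0 lower with no scaling of the arrays. Of 8 receptors of NK cells and their ligands, 2 were called higher and 2 lower, with 0 higher and 0 lower without the 3 squamous-high arrays. Clec2d, a ligand of NK receptors, had 6.32, 6.23 and 6.66 in C57BL/6J, against 8.51, 8.02 and 8.34 in C3H/HeJ, a difference of -1.88 ± 0.38 (SE, adjusted p = 0.00459), and the activating receptor Ncr1 was lower, with a difference of -1.33 ± 0.21 (SE, adjusted p = 0.000559). Klrb1b was higher by 1.22 ± 0.25 (SE, adjusted p = 0.0055) and Klrd1 by 1.01 ± 0.26 (SE, adjusted p = 0.0199).

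B and plasma cell genes had 1 call of 18, Vpreb3, higher by 1.07 ± 0.31 (SE, adjusted p = 0.0358). Of 6 immunoglobulin chains, 1 was called lower, which was Igha, the constant region of IgA. It had 9.78, 10.36 and 9.70 in C57BL/6J, against 11.80, 11.71 and 11.06 in C3H/HeJ. The difference was -1.58 ± 0.23 (SE, adjusted p = 0.000323), and -1.16 with the 3 squamous-high arrays left out. Of 23 macrophage genes, 2 were called higher and 0 lower, beside 6.0% and 4.85% of all genes. Both calls were lost without the 3 squamous-high arrays. They were Chil3, a chitinase-like protein of alveolar macrophages, at 11.68, 11.58 and 11.67 in C57BL/6J, against 10.36, 10.24 and 10.73 in C3H/HeJ, higher by 1.20 ± 0.34 (SE, adjusted p = 0.0354), and the fatty acid-binding protein Fabp5, higher by 0.95 ± 0.27 (SE, adjusted p = 0.0304). Fabp5, which epithelium also makes, was highest on the 2 C57BL/6J arrays high in squamous genes, at 11.38 and 11.39, and without them its difference was 0.53 (adjusted p = 0.419). None of 11 mast cell genes was called by limma, and 2 had an unadjusted p under 0.05.

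Chemokines and their receptors had 7 genes called higher and 4 lower of 44, beside 6.0% and 4.85% of all genes. Their median was 0.05. In the list, 5 were called higher and 0 lower with no scaling of the arrays, and 2 higher and 2 lower without the 3 squamous-high arrays. Ppbp and Pf4, chemokines stored in platelets, had differences of 2.35 ± 0.43 (SE, adjusted p = 0.00231) and 1.14 ± 0.16 (SE, adjusted p = 0.000254). Ppbp had 10.83, 10.84 and 10.78 in C57BL/6J, against 9.10, 8.48 and 7.81 in C3H/HeJ, narrow in C57BL/6J and spread out in C3H/HeJ. Ccl17, which attracts T helper cells, was higher by 1.48 ± 0.39 (SE, adjusted p = 0.0213), and Ccl27a by 0.99 ± 0.15 (SE, adjusted p = 0.000565). Complement had 0 genes called higher and 2 lower of 18, with 0 higher and 1 lower without the 3 squamous-high arrays, and 0 were called higher and 0 lower with no scaling of the arrays. Cd59a, the inhibitor of the membrane attack complex, had 6.61, 6.11 and 6.51 in C57BL/6J, against 7.83, 7.63 and 7.83 in C3H/HeJ, a difference of -1.35 ± 0.14 (SE, adjusted p = 7.57e-06), and the anaphylatoxin receptor C5ar1 was lower, with a difference of -0.71 ± 0.20 (SE, adjusted p = 0.0355).

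**Figure D4:**
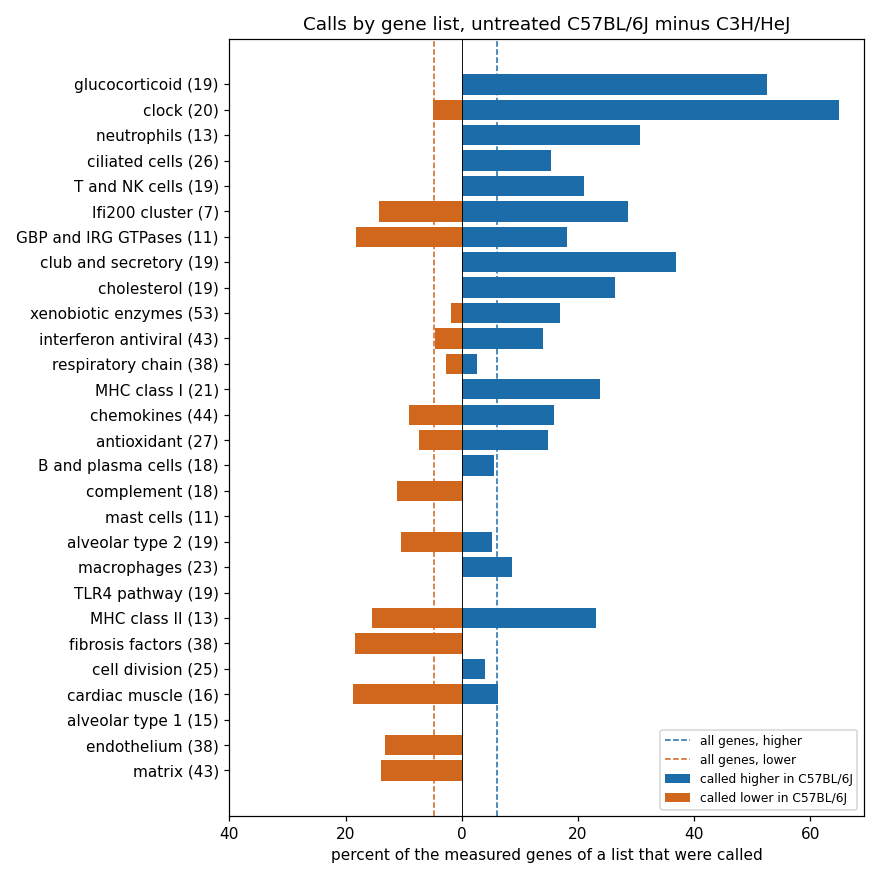
Percent of the measured genes of each list plotted that were called higher (right) or lower (left) in untreated C57BL/6J relative to C3H/HeJ, with the number measured in brackets and dashed lines at 6.0% and 4.85% over all genes. The lists of strain variants, sex, squamous, skeletal muscle, immunoglobulin and other genes are not plotted. Those plotted are ordered by median difference, from 0.90 for glucocorticoid genes at the top to -0.31 for matrix genes at the bottom.

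Airway epithelial genes that were called were higher in C57BL/6J. Of 19 genes of club and other secretory cells, 7 were called higher and 0 lower, with a median of 0.21. With the 3 squamous-high arrays left out, 1 was called, with a median of 0.29. Muc5b, the mucin that keeps airways clear, had 7.35, 7.46 and 7.62 in C57BL/6J, against 6.10, 6.28 and 6.15 in C3H/HeJ, a difference of 1.30 ± 0.23 (SE, adjusted p = 0.00175). Reg3g, an antibacterial lectin, was higher by 1.57 ± 0.44 (SE, adjusted p = 0.0304), Chad by 1.23 ± 0.24 (SE, adjusted p = 0.00369), the airway protein Bpifb1 by 1.09 ± 0.33 (SE, adjusted p = 0.0437) and Scgb3a1, a secretoglobin, by 0.83 ± 0.24 (SE, adjusted p = 0.0344). Of 26 genes of ciliated cells, 4 were called higher and 0 lower, with a median of 0.37. Tmem212 had 9.16, 9.45 and 9.11 in C57BL/6J, against 8.07, 8.17 and 8.21 in C3H/HeJ, a difference of 1.09 ± 0.15 (SE, adjusted p = 0.000146), and Hydin, needed for ciliary beating, was higher by 0.88 ± 0.20 (SE, adjusted p = 0.0104). Dynlrb2, a dynein light chain, differed by 0.76 ± 0.19 (SE, adjusted p = 0.0175) and Mlf1 by 0.69 ± 0.20 (SE, adjusted p = 0.0363). Foxj1 was not called (0.22, adjusted p = 0.373). Of the 26, 1 was called higher and 0 lower with no scaling of the arrays, and 2 higher and 0 lower without the 3 squamous-high arrays.

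Alveolar genes were followed by cell type. Of 19 alveolar type 2 genes, 1 was called higher, Fabp5, and 2 were called lower, beside 6.0% and 4.85% of all genes. Abca3, the lipid pump of surfactant storage, had 9.66, 9.63 and 9.63 in C57BL/6J, against 10.39, 10.35 and 10.15 in C3H/HeJ, a difference of -0.66 ± 0.14 (SE, adjusted p = 0.0076), and the chemokine Cxcl15 was lower, with a difference of -0.46 ± 0.09 (SE, adjusted p = 0.00473). None of 15 alveolar type 1 genes was called by limma, and 2 had an unadjusted p under 0.05.

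Enzymes of xenobiotic metabolism, many of them abundant in club cells, had 9 genes called higher and 1 lower of 53, with a median of 0.14. Cyp3a13, a cytochrome P450, had 5.93, 5.78 and 5.98 in C57BL/6J, against 3.78, 3.66 and 3.46 in C3H/HeJ. Its difference was 2.26 ± 0.21 (SE, adjusted p = 3.2e-06), and it may have passed the filter only through C57BL/6J arrays. Gsta2, a glutathione transferase, had 8.07, 8.04 and 7.69 in C57BL/6J, against 6.56, 6.59 and 6.46 in C3H/HeJ, a difference of 1.40 ± 0.12 (SE, adjusted p = 2.39e-06). The alcohol dehydrogenase Adh7 was higher by 1.76 ± 0.29 (SE, adjusted p = 0.00087), the sulfotransferase Sult1a1 by 1.15 ± 0.18 (SE, adjusted p = 0.000606) and the carbonyl reductase Cbr3 by 0.90 ± 0.15 (SE, adjusted p = 0.00132). Antioxidant genes had 4 called higher and 2 lower of 27, the lower ones being Nnt and Glo1. Over all genes the shares were 6.0% and 4.85%. Gpx2, a glutathione peroxidase of epithelium, was higher by 0.75 ± 0.17 (SE, adjusted p = 0.0109), Gclc, the first enzyme of glutathione synthesis, by 0.54 ± 0.12 (SE, adjusted p = 0.0104), and Nfe2l2, the transcription factor Nrf2 that drives such genes, by 0.52 ± 0.13 (SE, adjusted p = 0.0149). Once the 3 squamous-high arrays were removed, 0 were called higher by limma, as with no scaling of the arrays.

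Cholesterol synthesis had 5 of 19 genes called higher and 0 lower, each by less than 2-fold. Sc5d was higher by 0.74 ± 0.17 (SE, adjusted p = 0.00973), a difference of 0.00 when its probe sets were averaged, Cyp51 by 0.69 ± 0.15 (SE, adjusted p = 0.00825), Msmo1 by 0.67 ± 0.14 (SE, adjusted p = 0.00549), Sqle by 0.52 ± 0.15 (SE, adjusted p = 0.0392) and Fdft1 by 0.46 ± 0.13 (SE, adjusted p = 0.0347). A second probe set of Cyp51 gave 0.23 and was not called. Under no scaling, and without the 3 arrays high in squamous genes, 0 were called. Of 38 respiratory chain genes, Ndufb8 of complex I was called higher (0.45) and Nnt lower. Of 25 cell division genes 1 was called, Kif23, at 0.65.

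Calls among genes of connective tissue and vessels were mainly lower in C57BL/6J after quantile normalization, and nearly all were lost with no scaling of the arrays. Of 43 collagens and matrix proteins, 0 were called higher and 6 lower, with a median of -0.31. In the list, 0 were called higher and 0 lower with no scaling of the arrays, where the median was -0.03. Lama3, a chain of epithelial laminins, had 7.92, 7.88 and 8.0 in C57BL/6J, against 8.83, 8.66 and 8.74 in C3H/HeJ, a difference of -0.81 ± 0.13 (SE, adjusted p = 0.00066). Fbln5, which organises elastic fibres, had 9.48, 9.39 and 9.35 in C57BL/6J, against 10.05, 10.07 and 10.14 in C3H/HeJ, a difference of -0.68 ± 0.10 (SE, adjusted p = 0.000341). Loxl1, which crosslinks elastin, was lower, with a difference of -0.69 ± 0.13 (SE, adjusted p = 0.00262), Col4a4 of basement membranes by -0.68 ± 0.16 (SE, adjusted p = 0.0125) and nephronectin, Npnt, by -0.42 ± 0.12 (SE, adjusted p = 0.0386). Without the 3 arrays high in squamous genes 2 of the 43 were called lower and the median was -0.29.

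Of 38 growth factors, receptors and fibrinolysis genes studied in lung fibrosis, 0 were called higher and 7 lower, with a median of -0.11. In the list, 1 was called higher and 0 lower with no scaling of the arrays, where the median was 0.13, and median centring gave 0 higher and 1 lower. Tgfb3, a transforming growth factor, had 6.60, 6.78 and 6.98 in C57BL/6J, against 7.60, 7.41 and 7.40 in C3H/HeJ, a difference of -0.69 ± 0.13 (SE, adjusted p = 0.00236). Il1r1, the interleukin 1 receptor, was lower, with a difference of -0.72 ± 0.18 (SE, adjusted p = 0.0167), Ltbp2, a matrix protein related to latency proteins of TGF-beta, by -0.57 ± 0.15 (SE, adjusted p = 0.0246), the urokinase receptor Plaur by -0.50 ± 0.12 (SE, adjusted p = 0.0127) and Il4ra by -0.50 ± 0.14 (SE, adjusted p = 0.0358). With the 3 squamous-high arrays left out, 1 of these genes was called lower. Of 17 fibroblast genes, 1 was called higher and 2 lower, beside 6.0% and 4.85% of all genes. Clec3b, tetranectin, had 6.93, 6.18 and 6.58 in C57BL/6J, against 8.27, 7.91 and 8.58 in C3H/HeJ, a difference of -1.69 ± 0.34 (SE, adjusted p = 0.00402), and Pdgfra, the platelet-derived growth factor receptor of alveolar fibroblasts, was lower, with a difference of -0.46 ± 0.11 (SE, adjusted p = 0.0128). Other probe sets of Pdgfra gave -0.37 and 0.12 and were not called. Cygb, cytoglobin, was higher by 0.73 ± 0.21 (SE, adjusted p = 0.0387).

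Of 38 endothelial genes, 0 were called higher and 5 lower, with a median of -0.31. In the list, 0 were called higher and 1 lower with no scaling of the arrays, where the median was -0.02, and 0 higher and 3 lower without the 3 squamous-high arrays. Besides Aplnr they were its ligand Apln, a difference of -0.47 ± 0.12 (SE, adjusted p = 0.0236), the protein C receptor Procr, with 5.97, 5.58 and 5.74 in C57BL/6J, against 7.01, 7.10 and 7.19 in C3H/HeJ with a difference of -1.34 ± 0.21 (SE, adjusted p = 0.000708), the transcription factor Sox18, a difference of -0.69 ± 0.13 (SE, adjusted p = 0.00294), and the receptor Tie1, a difference of -0.58 ± 0.13 (SE, adjusted p = 0.00718). None of 15 smooth muscle genes was called by limma, and 3 had an unadjusted p under 0.05.

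Cardiac muscle genes, which mouse lungs carry in the walls of pulmonary veins, differed gene by gene. Of 16, 1 was called higher and 3 lower. The list averaged 7.92, 7.07 and 7.90 on the C57BL/6J arrays, against 7.88, 7.86 and 7.99 on the C3H/HeJ arrays. Its median difference was -0.12 with all arrays and -0.60 without the 3 squamous-high arrays. Myl2, a light chain of ventricular myosin, had 3.22, 3.39 and 4.03 in C57BL/6J, against 5.83, 6.0 and 5.97 in C3H/HeJ. Its difference was -2.39 ± 0.31 (SE, adjusted p = 0.00012), and it may have passed the filter only through C3H/HeJ arrays. The slow myosin heavy chain Myh7 had 6.17, 5.62 and 6.21 in C57BL/6J, against 7.70, 8.01 and 7.68 in C3H/HeJ, a difference of -1.80 ± 0.20 (SE, adjusted p = 1.72e-05), and the nuclear factor Ankrd1 had 7.34, 7.07 and 7.28 in C57BL/6J, against 9.17, 8.86 and 9.04 in C3H/HeJ, a difference of -1.79 ± 0.15 (SE, adjusted p = 1.35e-06). The atrial peptide Nppa had 8.75, 6.76 and 8.48 in C57BL/6J, against 5.0, 5.25 and 5.52 in C3H/HeJ, higher by 2.74 ± 0.64 (SE, adjusted p = 0.0109). Nppa was highest on the 2 arrays high in squamous genes, and without them its difference was 1.5 (adjusted p = 0.419).

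Of 22 squamous genes, 4 were called higher with all arrays and 0 without the 3 squamous-high arrays. The calls were led by Sprr3, a cornified envelope protein, with 8.62, 4.5 and 8.93 in C57BL/6J, against 3.08, 3.17 and 4.38 in C3H/HeJ. Its difference was 3.81 ± 1.10 (SE, adjusted p = 0.0361), and without the 3 arrays 0.96 (adjusted p = 0.409). Lce3c differed by 3.32 ± 0.85 (SE, adjusted p = 0.0191) and by 0.66 without them. Lce3b and Sprr1a were the other called genes, at 2.68 and 2.04, or 0.96 and 0.41 without them. Some squamous genes may have passed the filter only through the arrays where they are high. The list had a median of 2.08 with all arrays and of 0.01 without the 3. For skeletal muscle the medians were 1.41 and -0.31, with no gene of 17 called by limma and 8 at an unadjusted p under 0.05. With no scaling of the arrays 9 skeletal muscle and 18 squamous genes were called higher. Except for Sprr3, Lce3c, H2-D1 and Tnn, each of the 15 highest and 15 lowest genes was also called without the 3 arrays.

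Genes that mark sex were read in every array. Eif2s3y had 7.65, 7.99 and 7.63 in C57BL/6J, against 8.61, 8.85 and 8.65 in C3H/HeJ, Kdm5d had 5.35, 5.91 and 6.39 in C57BL/6J, against 6.88, 6.92 and 6.93 in C3H/HeJ and Uty had 6.65, 6.47 and 6.53 in C57BL/6J, against 7.81, 7.20 and 7.53 in C3H/HeJ. These Y-linked genes were thus expressed on all arrays and lower in C57BL/6J, with differences of -0.95 ± 0.13 (SE, adjusted p = 0.000239), -1.03 ± 0.18 (SE, adjusted p = 0.00168) and -0.96 ± 0.26 (SE, adjusted p = 0.0263), and they are neighbours on the Y chromosome. A second probe set of Kdm5d gave -0.52 and was not called. Xist, which is made from the inactive X chromosome, had 4.61, 5.53 and 4.93 in C57BL/6J, against 5.71, 5.72 and 5.68 in C3H/HeJ, and its difference of -0.68 was not called (adjusted p = 0.0769). Of the 4 genes, 0 were called higher and 0 lower with no scaling of the arrays, and 0 higher and 1 lower without the 3 squamous-high arrays. The sex of the mice is not given in the labels.

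The same strains were compared in irradiated lung, on arrays that share no sample with the untreated ones. There 2241 genes were called (18.1%), with 1059 higher (8.54%) and 1182 lower (9.53%) in C57BL/6J. Of the 1346 genes called in untreated lung, 1166 had the same direction in irradiated lung. Called in the same direction in both were 669 genes, 398 higher and 271 lower, which is 49.7% of the untreated calls and 29.9% of the irradiated calls, and 16 were called in opposite directions. Of the 66 genes with at least 4-fold differences, 55 were called in the same direction. Across the 1346 called genes, which are not independent replicates, the 2 sets of differences correlated at 0.81, and across all 12405 genes at 0.49. The 1346 were chosen for its untreated differences. The third irradiated C3H/HeJ array lay between strains. Over 63 genes that separate untreated A/J from untreated C3H/HeJ, its position was 0.55 of the way to A/J, against 0.09 and 0.07 for the other irradiated C3H/HeJ arrays. Without it 1892 genes were called in irradiated lung and 641 were shared.

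**Figure D5:**
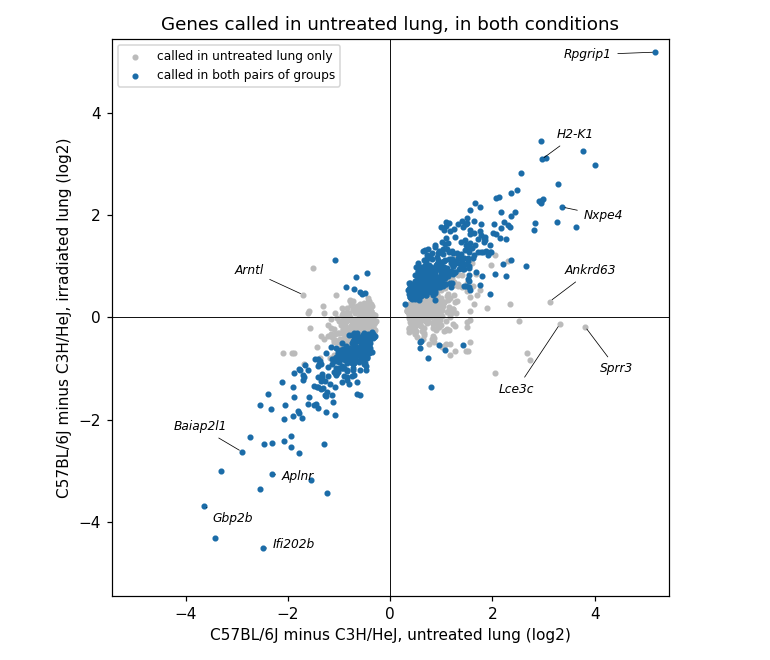
Difference between C57BL/6J and C3H/HeJ (log2) in irradiated lung against that in untreated lung, for the 1346 genes called in untreated lung, in blue where the irradiated pair was also called. Rpgrip1 lies at 5.19 and 5.19, while Sprr3, Lce3c, Ankrd63 and Arntl lie near 0 on the vertical axis.

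Several of the strain-separating genes were called in irradiated lung too. Rpgrip1 had 9.61, 9.67 and 9.92 in irradiated C57BL/6J, against 4.65, 4.24 and 4.73 in irradiated C3H/HeJ, and a difference of 5.19. Gbp2b differed by -3.70, Baiap2l1 by -2.63, H2-K1 by 3.09, Cap1 by -2.45, Nnt by -1.16 and Glo1 by -1.30, all called. For H2-D1 the third irradiated C3H/HeJ array was at 11.25 and the other 2 were at 7.45 and 7.43, so that the difference of 2.99 there rests on arrays that disagree.

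The change of the strain difference was tested as untreated minus irradiated difference, and 200 genes were called (1.61%), 73 of them among the 1346. Of the 661 genes called in untreated and not in irradiated lung, 45 were called in this test, so for the rest a difference between conditions was not shown. Once the 3 squamous-high arrays were removed, 20 genes were called in it, and with 1 array left out 87 to 371. Ankrd63 had 4.26, 4.43 and 4.55 in irradiated C57BL/6J, against 4.63, 3.44 and 4.25 in irradiated C3H/HeJ. Its difference of 3.12 in untreated lung was 0.31 in irradiated lung, a change of 2.81 (adjusted p = 0.000482). Ankrd63 may have passed the filter only through the untreated C57BL/6J arrays, where it is high. Among clock genes, 6 were called in this test. Per2 changed by 1.51 (adjusted p = 0.000406), Dbp by 1.70 (0.00794), Per1 by 1.37 (0.00703) and Arntl by -2.14 (0.00703), with Tef and Bhlhe40 at 1.01 and 0.77. In irradiated lung 3 clock genes were called higher and 0 lower, with a median of 0.28. Dbp then had 8.11, 8.92 and 8.76 in C57BL/6J, against 8.25, 8.42 and 8.55 in C3H/HeJ, and Arntl had 5.07, 5.55 and 5.26, against 4.61, 4.80 and 5.14.

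Ifi202b separated the strains further in irradiated lung, where it had 2.89, 3.06 and 2.88 in C57BL/6J and 7.12, 7.56 and 7.71 in C3H/HeJ, a difference of -4.52 (change 2.04, adjusted p = 0.00686). Some genes with the largest changes were not called in untreated lung. Il6, an inflammatory cytokine, had 2.91, 3.84 and 3.47 in C57BL/6J, against 2.88, 3.08 and 3.89 in C3H/HeJ, and its irradiated difference was -3.68 (change 3.80, adjusted p = 0.00618). Timp1, an inhibitor of matrix proteases, had 6.25, 6.45 and 5.79 in C57BL/6J, against 6.10, 6.05 and 6.09 in C3H/HeJ, and its irradiated difference was -3.14. The mast cell proteases Tpsb2 and Tpsab1 had untreated differences of 0.28 and -0.95, not called, and irradiated differences of -2.66 and -3.87. Igha had a called difference of -1.58 in untreated lung and one of 0.12 in irradiated lung (change -1.70, adjusted p = 0.0176), and Ighm, the chain of IgM, was at -0.26 and 2.51. Other probe sets of Ighm ranged from -0.53 to 2.64 in untreated lung. The one at 2.64 was called and was at 8.62 in irradiated lung. Age, time since exposure and disease differ between the untreated and irradiated groups, and cannot be told apart from irradiation.

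Untreated A/J mice, the remaining strain, give a further level for each gene. The comparisons of C57BL/6J and of C3H/HeJ with A/J called 1292 (10.4%) and 557 (4.49%) genes, and both share arrays with the comparison described here. Several genes had a level in A/J close to that of C3H/HeJ. Baiap2l1 averaged 7.46 ± 0.04 in C57BL/6J, 10.36 ± 0.10 in C3H/HeJ and 10.38 ± 0.05 in A/J (SD, n = 3 each). Cap1 averaged 7.73, 10.05 and 10.12 in the same order, Rpgrip1 9.70, 4.5 and 4.96, and Nnt 6.84, 8.26 and 8.30. Others had a level in A/J close to that of C57BL/6J. Efhd2 averaged 9.98, 6.73 and 9.96, Pdxdc1 8.79, 5.80 and 8.58, and Myl2 3.54, 5.93 and 3.40. H2-K1 in A/J was at 9.55, near C3H/HeJ, while H2-D1 was at 11.78, near C57BL/6J. Clock genes in A/J lay on the far side of C3H/HeJ for Dbp, at 9.76, 7.87 and 5.46, and for Arntl, at 4.56, 6.26 and 7.03.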

How the data were processed

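Lung RNA of 6 samples from untreated mice was analysed, within a series of 18 arrays. The authors deposited 1 linear signal intensity per probe set and array for 45101 probe sets. Per the submitters' processing notes, MAS5 was used, with no version. Its target scaling and background settings are not given in the sources used here. Samples were grouped by their titles, and 0 columns of the table were unmapped.

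From the deposited intensity, log2(signal + 7) was computed, where 7 is near the 25th percentile, and quantile-normalized. The 64 control probe sets were left out. A probe set was kept if above the overall median on at least 3 arrays, which left 25784. Genes such as Cyp3a13, Myl2 and Trim5 may have passed only through the arrays of 1 strain, where they are high. The platform annotation named 1 gene for 34958 probe sets and several genes for 932, and 9211 were not in it and stay unnamed. Each gene was represented by its kept probe set with the highest mean, giving 12405 genes. The 6 group means were fitted to all 18 arrays by lmFit and eBayes of limma (version 3.58.1, under R 4.3.3), which left 12 residual degrees of freedom. All p-values are two-sided and were adjusted over the 12405 genes by the Benjamini-Hochberg method, with 0.05 as the threshold, and every adjusted p given is limma's. The number of arrays limits the precision. Tested on simulated arrays of the untreated comparison with 12405 genes, the fit called 34%, 88%, 98% and 100% of genes changed by 0.5, 1, 2 and 3 on the log2 scale, and 10 unchanged genes. Noise was drawn independently for each gene and array. The simulation thus lacks arrays on which many genes shift together, as on C57BL/6J replicates 1 and 3, and does not give error rates for these data.

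Members and gene lists were chosen with earlier results of these data known. Genes were named by a rule: the 15 highest and 15 lowest called differences without overlap between arrays, up to 5 called members of each list, the 6 highest and 6 lowest in the change of the strain difference, and all measured members of the lists of strain variants, Glo1 neighbours, sex genes and lung genes. Lists are described by counts and medians, with no test. Samples with the same replicate number did not deviate together (correlations of -0.01, 0.06 and -0.06 for the untreated pairs), so the numbers were not used to pair samples. Alternatives covered array scaling, the added constant, the filter, the choice of probe set, the arrays fitted, the variance model and leaving out arrays.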

Additional observations from a re-analysis of the deposited data

Results flagged for a closer look

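For 23 of the genes named by the rule, the difference between C57BL/6J and C3H/HeJ differed between untreated and irradiated lung by the test of that change, untreated minus irradiated difference on the log2 scale, with limma's adjusted p under 0.05. Among all 12405 genes, 200 were called in this test (1.61%). The 6 highest and 6 lowest of the called changes were named because of it, so their passing follows from the rule. The others of the 23 were named for their untreated differences. Each is given as its change, with the strain difference in each condition in brackets.

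The clock genes were Per2 at 1.51 (1.95 untreated, 0.45 irradiated, adjusted p = 0.000406), Dbp at 1.7 (1.89 untreated, 0.19 irradiated, adjusted p = 0.00794), Per1 at 1.37 (1.64 untreated, 0.27 irradiated, adjusted p = 0.00703) and Arntl at -2.14 (-1.7 untreated, 0.44 irradiated, adjusted p = 0.00703). Inflammatory and mast cell genes were Il6 at 3.8 (0.12 untreated, -3.68 irradiated, adjusted p = 0.00618), Timp1 at 3.23 (0.09 untreated, -3.14 irradiated, adjusted p = 0.00618), Tpsb2 at 2.95 (0.28 untreated, -2.66 irradiated, adjusted p = 0.00703), Tpsab1 at 2.92 (-0.95 untreated, -3.87 irradiated, adjusted p = 0.00703) and the eosinophil-attracting chemokine Ccl24 at 2.92 (0.31 untreated, -2.61 irradiated, adjusted p = 0.0142). The immunoglobulin genes were Igha at -1.7 (-1.58 untreated, 0.12 irradiated, adjusted p = 0.0176), Ighm at -2.77 (-0.26 untreated, 2.51 irradiated, adjusted p = 0.0142) and Igkv6-20 at -2.35 (-1.13 untreated, 1.22 irradiated, adjusted p = 0.0487). For these 3 the strain difference was higher in irradiated than in untreated lung. Another probe set of Ighm was called in untreated lung, at 2.64, and was at 8.62 in irradiated lung.

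Genes with a large untreated difference were Ankrd63 at 2.81 (3.12 untreated, 0.31 irradiated, adjusted p = 0.000482), Sox11 at 1.88 (3.64 untreated, 1.76 irradiated, adjusted p = 0.0249), Nxpe4 at 1.2 (3.36 untreated, 2.16 irradiated, adjusted p = 0.00703), Cyp3a13 at 1.45 (2.26 untreated, 0.81 irradiated, adjusted p = 0.0236) and Ifi202b at 2.04 (-2.48 untreated, -4.52 irradiated, adjusted p = 0.00686). The platelet chemokine Pf4 was at 1.39 (1.14 untreated, -0.24 irradiated, adjusted p = 0.00766) and the MHC class II chain H2-Eb1 at 0.68 (0.59 untreated, -0.1 irradiated, adjusted p = 0.0406). The cell adhesion gene Chl1 was at 2.83 (0.27 untreated, -2.56 irradiated, adjusted p = 0.0101), the retinoic acid-degrading enzyme Cyp26b1 at -2.58 (-0.02 untreated, 2.56 irradiated, adjusted p = 0.0433), the peroxisomal thiolase Acaa1b at -2.49 (-1.52 untreated, 0.96 irradiated, adjusted p = 0.0197) and the unnamed transcript 1600014C23Rik at -2.21 (-1.09 untreated, 1.12 irradiated, adjusted p = 0.0279).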

How the results depend on the processing

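The number of genes called in untreated lung was 1346. With no scaling 447 genes were called, 85.7% of them higher in C57BL/6J, with median centring 798, 68.7% of them higher, beside 55.3% of the 1346, and the median difference of all genes was 0.23, 0.05 and -0.02. Testing each probe set gave 2151 calls, and leaving out the 3 arrays high in squamous genes 414. Leaving out 1 array gave 892 to 1081 calls, with 892 without C3H/HeJ untreated replicate 1. In irradiated lung (2241) no scaling gave 622 and each probe set 3516, and leaving out 1 array 1385 (C57BL/6J replicate 3, with 1461 without C3H/HeJ replicate 1) to 2181. The change of the strain difference (200) had 323 calls with 32 added in place of 7, 99 with no filter, 406 with array weights, 20 without the 3 arrays, and 87 to 371 with 1 array left out, over 1.5 times away without untreated C57BL/6J replicate 1, untreated C3H/HeJ 1 or 3, any irradiated C57BL/6J replicate, or irradiated C3H/HeJ 1 or 2. C57BL/6J minus A/J (1292) had 384 with no scaling and 403 without the 3 arrays, and C3H/HeJ minus A/J (557) had 251 with no scaling and 353 with median centring. Genes called the same way in both conditions (669) were 137 with no scaling, 399 with median centring and 276 without the 3 arrays, and 511 to 654 with 1 array left out. With the replicate number as a block, the counts were 1283, 2099, 152, 1223, 517 and 644 in the order above. Directions turned for Sc5d (0.00 with probe sets averaged), Tlr4 (-0.05 averaged, -0.15 with only the 6 or the 9 untreated arrays), Ctse (-0.12 with only the 6 or the 9), Btbd9 (0.09 with no scaling, 0.04 averaged), Dnah8 (0.00 with no scaling) and Glp1r (0.04 with no scaling). Of 137 named genes called in untreated lung, 53 were called under every alternative that measured them and 84 lost the call in at least 1. Among the 53, Trim5 was measured in 16 of 19 alternatives, and Ankrd63, Cyp3a13 and Myl2 in 18. The causes were not tested, except that fits without arrays have fewer samples. Tests of each probe set covered 21920.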

Other observations

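Genes of platelets and megakaryocytes were gathered into a list after Ppbp and Pf4 had been seen among the called genes, so its counts are a description. Of 19 measured, 10 were called higher and 1 lower in C57BL/6J, beside 6.0% and 4.85% of all genes, with a median of 0.79. The list averaged 7.80, 7.86 and 7.64 on the C57BL/6J arrays, against 7.08, 7.0 and 6.74 on the C3H/HeJ arrays, with no overlap. Itgb3, the beta chain of the fibrinogen receptor, had 6.99, 7.46 and 7.13 in C57BL/6J, against 2.98, 4.79 and 5.32 in C3H/HeJ, a difference of 2.83 ± 0.43 (SE, adjusted p = 0.000421). Clec1b, a platelet receptor for podoplanin, had 9.37, 9.57 and 8.96 in C57BL/6J, against 7.90, 8.01 and 7.37 in C3H/HeJ, a difference of 1.54 ± 0.24 (SE, adjusted p = 0.000529), and Gp1bb, a chain of the von Willebrand factor receptor, was higher by 1.17 ± 0.22 (SE, adjusted p = 0.00305). Without the 3 arrays high in squamous genes 6 were called higher and 0 lower, with a median of 0.94. In irradiated lung 8 were called higher and 2 lower. How much blood each lung held is not given in the labels.

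Called genes also lay next to each other. With 12384 genes placed in the order of the mouse genome by RefSeq, 14 runs of at least 3 neighbouring measured genes were called in the same direction, holding 31 genes higher and 12 lower in C57BL/6J. The longest held Nedd1, Cfap54, Cdk17 and Mir1931. Others held Dock5, Adamdec1 and Adam28, or Marchf8, Alox5 and Rassf4, all higher, and Hddc3, Man2a2 and Fes, or Thumpd2, Slc8a1 and Pkdcc, all lower. These genes were chosen after their values were seen, and how many such runs the order of genes would give by itself was not tested.

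Retn, the hormone resistin of fat cells, was the called gene among 9 fat cell genes, higher by 1.14 ± 0.26 (SE, adjusted p = 0.0102). Acute-phase proteins had 1 call of 12, which was Lcn2. Dendritic cell genes had 1 call of 19, which was Ccl17. The 3 measured thymus genes had 1 call, Cd8b1, and of 4 red blood cell genes none was called by limma, with 3 at an unadjusted p under 0.05. Over all genes 6.0% were called higher and 4.85% lower.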
